A study of Mus musculus with 30 samples.

Results

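The genes described here are 7 genes of growing axons and immature neurons, measured in the hippocampus of Nf1 heterozygous and wild-type mice: Dcx, Dpysl3, Crmp1, Dpysl4, Dpysl2, Cd24a and Gap43. They were chosen by name, as every probe set whose single gene symbol in the platform annotation was Dcx, Cd24a, Gap43 or Crmp1, or began with Dpysl. The choice was made with earlier results of these data known. Each gene had 1 probe set, so they were 7 of the 12488 probe sets on the array. All 7 passed the filter on dim probe sets, which left 7453 for testing. Their lowest value, an intensity of 37.0 for Dpysl3, lay above the level of 30.8 at which the filter was set. No probe set had Dpysl5, of the same family, as its single symbol, so Dpysl5 was not analysed here.

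Expression was measured in 30 samples of total RNA on single-colour Affymetrix arrays, 1 array per sample. Each sample pooled the hippocampi of 2 male pups from matings of C57BL/6 with Nf1 heterozygous mice, and genotype was read from the liver. Nf1 encodes neurofibromin, a protein that switches off Ras signalling and that is also known to bind Dpysl2. The 15 heterozygous (Nf1 +/-) pools comprised 4 taken 10 days after birth (P10), 4 at P15, 2 at P18, 2 at P20, 2 at P28 and 1 at P32. The 15 wild-type pools comprised 3 taken at P10, 4 at P15, 2 at P18, 2 at P20, 2 at P28 and 2 at P32. The labels name neither the Nf1 allele nor a litter or processing day. P-values therefore measure the spread between pools of 2 pups, and the number of arrays limits their precision.

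These genes are best known from neurons that are still migrating or extending axons. Dcx encodes doublecortin, a protein that binds microtubules in migrating neuroblasts and in newborn granule cells of the dentate gyrus. Crmp1, Dpysl2, Dpysl3 and Dpysl4 encode collapsin response mediator proteins, which bind tubulin and carry semaphorin signals to the cytoskeleton of the growth cone, the moving tip of an axon. Cd24a encodes a small surface glycoprotein found on immature neurons, and Gap43 encodes a growth cone membrane protein that is a substrate of protein kinase C and binds calmodulin.

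RefSeq promoter windows of build GRCm38.p6, running from 250 bases before to 50 bases after a listed start, matched 2 of the 7 genes. Those of Dcx and Crmp1 are shown because no window matched the other genes. The Dcx window lies on the minus strand at chrX:143933170-143933469, and the Crmp1 window on the plus strand at chr5:37241808-37242107. The Crmp1 window is placed on the outermost annotated start of its gene. The Dcx window is placed on a start inside the gene and contains the outermost annotated start, so its TATAAA lies within the annotated gene. Capitals mark TATAAA in Dcx and GGGCGG or its reverse complement CCGCCC in Crmp1.
Dcx: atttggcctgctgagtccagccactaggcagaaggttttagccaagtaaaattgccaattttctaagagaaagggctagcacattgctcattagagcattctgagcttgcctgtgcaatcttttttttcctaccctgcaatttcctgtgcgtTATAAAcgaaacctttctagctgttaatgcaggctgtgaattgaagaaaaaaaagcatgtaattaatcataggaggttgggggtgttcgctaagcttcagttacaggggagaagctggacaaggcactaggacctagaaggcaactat
Crmp1: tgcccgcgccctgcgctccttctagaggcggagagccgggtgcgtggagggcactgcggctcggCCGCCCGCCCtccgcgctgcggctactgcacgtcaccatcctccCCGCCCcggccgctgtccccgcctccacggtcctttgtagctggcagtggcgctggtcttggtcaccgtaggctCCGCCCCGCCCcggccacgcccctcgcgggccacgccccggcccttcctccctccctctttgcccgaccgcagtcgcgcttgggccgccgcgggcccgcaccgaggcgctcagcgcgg
The Dcx window held 43.0% G and C, with 1 TATAAA and no GGGCGG. The Crmp1 window held 77.0% G and C, with 5 copies of GGGCGG on either strand, some sharing bases, and no TATAAA. Over the 32851 windows of the table, the median share of G and C was 52.7%, TATAAA was found on either strand in 13.6% and GGGCGG in 35.7%. Neither window held CAGCTG, the core of an E-box, which was found in 16.3%. Each gene had a second window, which for Dcx overlapped the one shown and held the same TATAAA, and for Crmp1 held 61.0% G and C and 2 copies of GGGCGG. A match of letters is a description and shows no binding.

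Values are intensities on a linear scale, which the authors had brought to a common level on every array, and differences are on the log2 scale. Nf1 itself had 1 probe set, which was dim and below the filter, with 2.2 to 15 (median 5.1) in heterozygous pools and 1.4 to 19.1 (median 6.2) in wild-type pools, so it does not check the genotype labels. Pools of 1 group correlated across probe sets at 0.953 to 0.984, except the heterozygous P18 pair at 0.93. Of that pair, the pool with title code 1b had the highest ratio of the 3' to the 5' Gapdh probe set of all arrays, 0.48 on the log2 scale against -0.33 to 0.17 in the others. The title code is the number and letter in a sample's title, which the labels do not explain. Of 20 genes of mature hippocampal neurons on the array, 20 passed the filter.

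All 7 genes had lower estimates in the hippocampus of older mice of both genotypes. The fall was called for 7 of 7 in heterozygotes and 6 of 7 in wild type (adjusted p below 0.05), and its estimate was steepest for Dcx, Dpysl3 and Cd24a. Between P10 and the mean of P28 and P32, Dcx and Cd24a fell 7.36-fold and 7.30-fold in heterozygotes and 5.13-fold each in wild type. Dpysl3 fell 7.41-fold in heterozygotes and 5.67-fold in wild type. The fall of Gap43 was smaller, 2.04-fold in heterozygotes and 2.12-fold in wild type. In whole tissue, fewer cells of a type and less RNA per cell cannot be told apart.

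Dcx read 726.3, 607.0, 637.5 and 813.0 in heterozygous pools at P10, then 202.0, 241.1, 136.8 and 121.1 at P15, 152.4 and 208.7 at P18, 129.9 and 111.5 at P20, 101.5 and 79.6 at P28, and 98.3 at P32. In wild-type pools it read 679.2, 604.4 and 650.7 at P10, then 167.5, 170.4, 297.0 and 232.4 at P15, 155.1 and 146.5 at P18, 150.1 and 144.8 at P20, 117.2 and 113.1 at P28, and 138.0 and 136.2 at P32. The P10 pools of both genotypes stood alone, with every later pool far below them. The P28 and P32 pools were also below every P15 pool of their own genotype. The change from P10 to P28 and P32 was -2.88 ± 0.21 (log2, SE) in heterozygotes and -2.36 ± 0.20 in wild type, with adjusted p of 3.39e-10 and 7.48e-09 in limma.

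Cd24a followed nearly the same course. Its heterozygous pools read 1252.1, 1143.1, 1193.9 and 1065.3 at P10, 416.3, 334.8, 275.3 and 201.7 at P15, 247.6 and 326.5 at P18, 203.9 and 189.3 at P20, 179.2 and 118.8 at P28, and 173.5 at P32. Its wild-type pools read 1245.3, 1290.9 and 1094.3 at P10, 292.6, 331.9, 530.9 and 457.5 at P15, 283.3 and 314.2 at P18, 264.5 and 314.2 at P20, 229.8 and 218.4 at P28, and 226.2 and 270.3 at P32. All later pools again lay below all P10 pools, and on the log2 scale the widest spread within a group was at P15. The change from P10 to P28 and P32 was -2.87 ± 0.21 in heterozygotes and -2.36 ± 0.20 in wild type (log2, SE; adjusted p 3.39e-10 and 7.48e-09).

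Of the collapsin response mediator family, Dpysl3, which is abundant in embryonic and newborn neurons, fell most. In heterozygotes it read 398.6, 256.1, 339.3 and 395.9 at P10, 132.4, 112.0, 81.7 and 83.0 at P15, 91.9 and 38.4 at P18, 52.1 and 56.6 at P20, 40.1 and 37.0 at P28, and 55.4 at P32. In wild type it read 236.8, 266.4 and 309.0 at P10, 111.9, 140.7, 155.0 and 132.1 at P15, 112.5 and 98.8 at P18, 146.7 and 130.0 at P20, 52.6 and 50.4 at P28, and 47.6 and 40.2 at P32. Wild-type pools at P15 overlapped those at P18 and those at P20, and wild-type pools were lowest at P28 and P32, while heterozygous pools at P20 lay close to those at P28 and P32. The change from P10 to P28 and P32 was -2.89 ± 0.22 in heterozygotes and -2.50 ± 0.22 in wild type (log2, SE; adjusted p 1.22e-09 and 9e-09).

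Crmp1, another member of the family, read 2675.8 to 3071.8 in the 4 heterozygous pools and 2625.0 to 2849.2 in the 3 wild-type pools at P10. At P28 and P32 it read 914.2 to 1052.8 in heterozygotes and 889.7 to 1152.4 in wild type, so every older pool lay below every P10 pool. The change was -1.52 ± 0.15 in heterozygotes and -1.40 ± 0.14 in wild type (log2, SE). Dpysl4 read 378.9 to 494.5 in heterozygous and 416.2 to 481.8 in wild-type pools at P10. At P28 and P32 it read 141.6 to 205.0 in heterozygotes and 155.8 to 286.0 in wild type, again with no overlap with P10. Its change was -1.39 ± 0.14 in heterozygotes and -1.16 ± 0.13 in wild type.

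Dpysl2, which promotes axon outgrowth by delivering tubulin to microtubule ends, changed least among the family. It read 127.3, 122.0, 102.2 and 152.4 at P10, 64.7 and 65.1 at P28 and 49.4 at P32 in heterozygotes. In wild type it read 88.2, 120.8 and 82.4 at P10, 77.6 and 76.5 at P28, and 78.9 and 53.9 at P32. The older wild-type pools lay just below the lowest P10 pool, and the older heterozygous pools well below it. The change of -1.14 ± 0.25 in heterozygotes was called (adjusted p 0.00102) and that of -0.43 ± 0.24 in wild type was not (log2, SE; adjusted p 0.165).

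Gap43 read 1951.3, 1902.8, 1959.8 and 1909.3 in heterozygotes at P10, 1414.2, 1161.1, 816.7 and 871.0 at P15, 1150.6 and 840.7 at P18, 561.9 and 767.1 at P20, 968.0 and 907.7 at P28, and 956.4 at P32. In wild type it read 1953.7, 2206.7 and 2012.9 at P10, 1291.3, 1141.8, 1698.0 and 1629.2 at P15, 823.7 and 1047.1 at P18, 1466.7 and 1227.6 at P20, 752.1 and 1088.8 at P28, and 1061.5 and 1017.5 at P32. P10 was the highest age in both genotypes, and later ages did not descend in order: the lowest heterozygous pools were at P20, where wild-type pools were above those at P18. The change from P10 to P28 and P32 was -1.03 ± 0.18 in heterozygotes and -1.08 ± 0.17 in wild type (log2, SE; adjusted p 8.23e-05 and 2.57e-05). The name of this probe set ends in _s_at, which marks probes that may match more than 1 sequence.

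**Figure D1:**
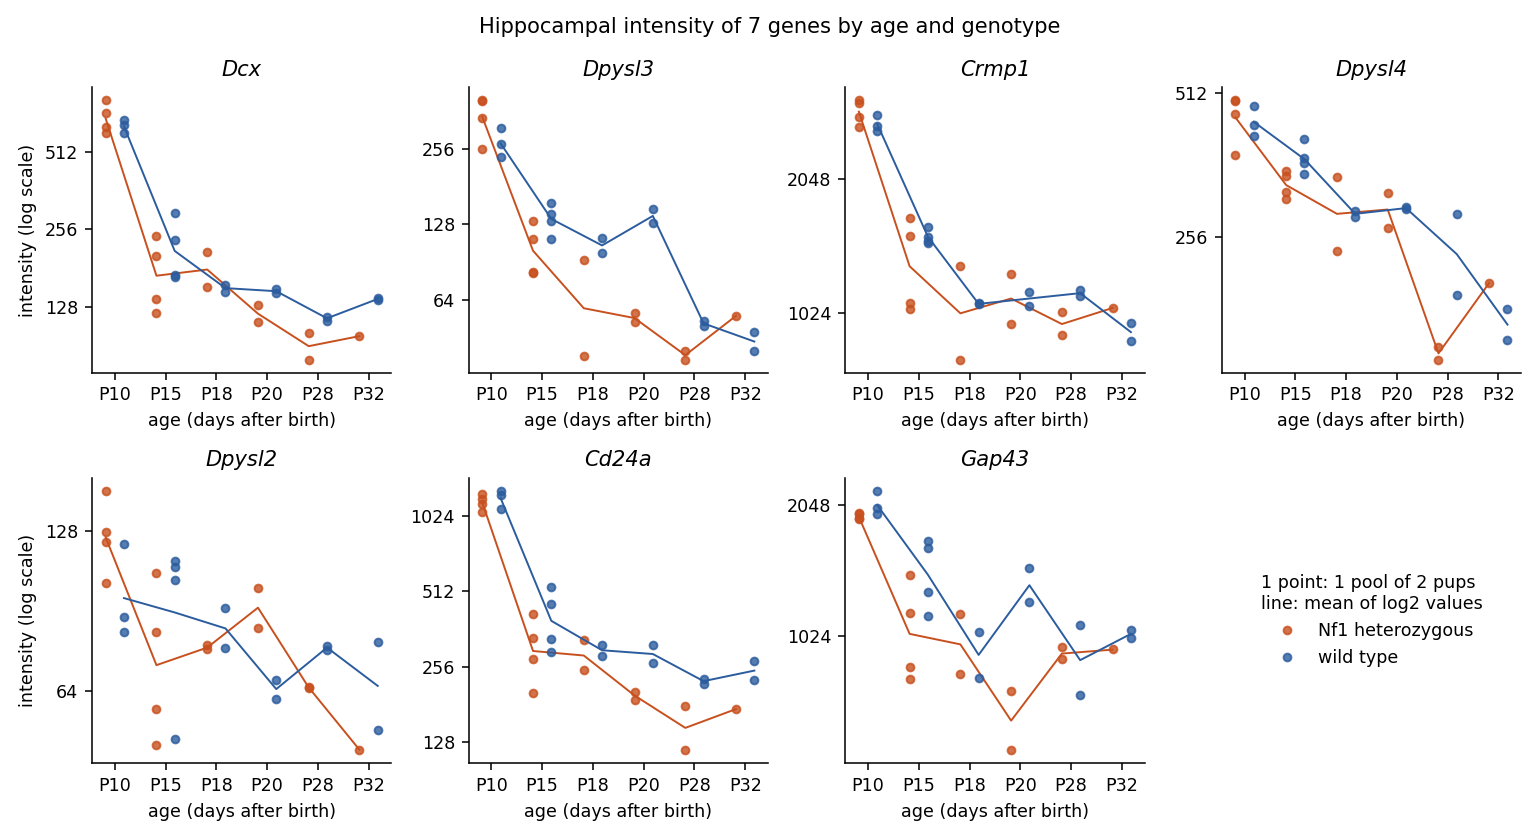
Intensity (log scale) of each of the 7 genes by age in days after birth; 1 point is 1 pool of 2 pups, orange for Nf1 heterozygous and blue for wild type, and lines join means of log2 values. All pools at P28 and P32 lie below all P10 pools of the same genotype for 7 of 7 genes.

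Over the whole span, 7 of 7 genes were called lower in heterozygotes, where 19.5% of the 7453 tested probe sets were called lower and 36.5% in either direction. In wild type 6 of 7 were called lower, where 20.1% were called lower and 38.2% in either direction. The median change of the 7 was -1.52 in heterozygotes and -1.40 in wild type, and that of all tested probe sets was -0.06 in heterozygotes and -0.04 in wild type. For 7 of 7 genes in each genotype no pool at P28 or P32 reached any P10 pool, which held for 25.9% of tested probe sets in heterozygotes and 23.5% in wild type. Since the genes were chosen with earlier results of these data known, these counts and medians are a description and not an independent test. The interaction of the fall with genotype was called for 0 of 7 genes and for 0 of 7453 probe sets (limma; 508 at an unadjusted p below 0.05).

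For 6 of 7 genes the estimated fall was larger in heterozygotes than in wild type. The difference between the genotypes' changes was -0.71 for Dpysl2 (95% confidence interval -1.43 to 0.02), -0.52 for Dcx (-1.11 to 0.07), -0.51 for Cd24a (-1.10 to 0.08) and -0.39 for Dpysl3 (-1.03 to 0.26). For Dpysl4 it was -0.23 (-0.62 to 0.16), for Crmp1 -0.11 (-0.54 to 0.31) and for Gap43 0.06 (-0.45 to 0.56). Each interval contains 0, and each leaves room for a difference in either direction. The 7 genes were measured in the same pools, so their shared sign is not independent evidence.

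**Figure D2:**
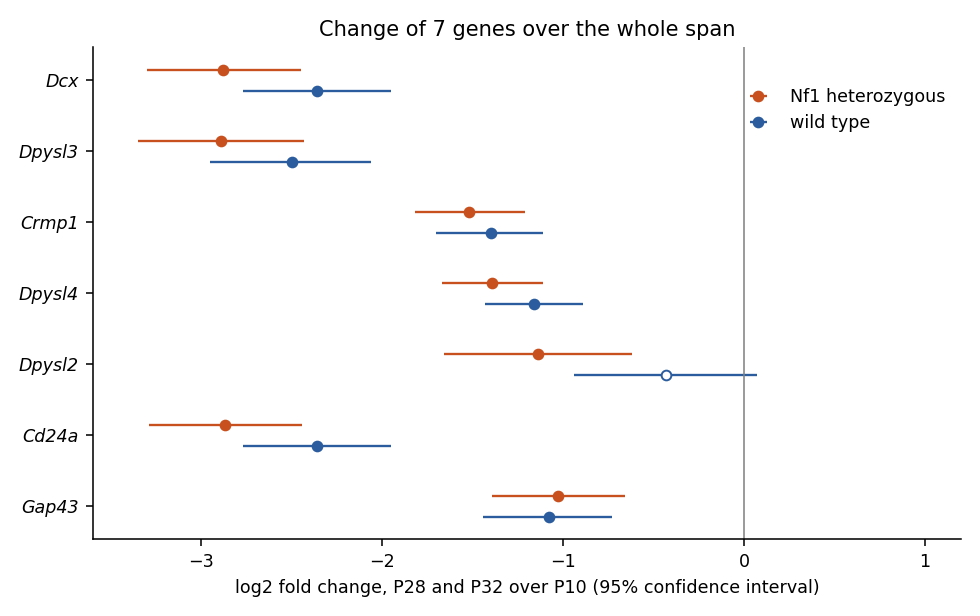
Log2 change of each gene from P10 to the mean of P28 and P32 with its 95% confidence interval, orange for Nf1 heterozygous and blue for wild type; filled points were called and the open point was not. Dpysl2 in wild type (-0.43) is the only change not called, and Dcx, Dpysl3 and Cd24a changed most.

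Dcx and Cd24a fell mostly between P10 and P15. Averaged over genotypes, Dcx changed by -1.82 ± 0.14 and Cd24a by -1.80 ± 0.14 in these 5 days, followed by Dpysl3 with -1.39 ± 0.15, Crmp1 with -1.0 ± 0.10, Gap43 with -0.71 ± 0.12 and Dpysl4 with -0.36 ± 0.09 (log2, SE). These 6 of 7 were called lower, against 13.4% of tested probe sets, and Dpysl2 with -0.44 ± 0.17 was not (adjusted p 0.0508). Dpysl2 was called with log2(value + 32) (-0.32, adjusted p 0.0454), with array weights (-0.45, 0.0309) and without any 1 of 9 pools. With 1 of these left out (heterozygous P10 2a, P15 1d and P15 2c; wild-type P10 2b, P15 1a, P15 1b, P15 2d, P32 1a and P32 1b) the change was -0.54 to -0.44 and the adjusted p 0.0158 to 0.0498.

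In heterozygotes alone 7 of 7 genes were called lower at P15 than at P10 (11% of tested probe sets), and in wild type 4 of 7 (2.55%). Dcx changed by -2.04 in heterozygotes and -1.61 in wild type, and Cd24a by -1.97 in heterozygotes and -1.62 in wild type. Dpysl3 changed by -1.77 in heterozygotes and -1.01 in wild type, and Crmp1 by -1.15 in heterozygotes and -0.84 in wild type. All of these changes were called. Gap43 changed by -0.89 in heterozygotes (adjusted p 0.000262) and by -0.53 in wild type (0.0663). Dpysl4 changed by -0.46 (adjusted p 0.0076) in heterozygotes and -0.25 (0.301) in wild type, and Dpysl2 by -0.80 (0.0131) in heterozygotes and -0.09 (0.89) in wild type. For every gene except Dpysl2 all P15 pools lay below all P10 pools in each genotype, which held for 13.4% of tested probe sets in heterozygotes and 9.73% in wild type. The heterozygous call of Dpysl2 was lost without pool 2d at P15 (-0.63, adjusted p 0.066). The wild-type change of Gap43 was called without heterozygous pools P15 1c, P18 1a or P18 1b or wild-type pool P15 2c (-0.62 to -0.53, adjusted p 0.0429 to 0.0473), and with array weights (-0.59, 0.0192), the Gapdh ratio in the model (-0.68, 0.0203) or only the groups compared (-0.53, 0.0471). These changes from P10 to P15 share the P10 pools with those over the whole span.

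After P15 the estimates were in another order. From P15 to the mean of P28 and P32, Dpysl3 changed by -1.31 ± 0.15 and Dpysl4 by -0.92 ± 0.09, more than Cd24a with -0.82 ± 0.14 and Dcx with -0.79 ± 0.14 (log2, SE, both genotypes averaged). Crmp1 changed by -0.46 ± 0.10 and Gap43 by -0.34 ± 0.12 (adjusted p 0.0226). These 6 of 7 were called lower, against 22.6% of tested probe sets, and Dpysl2 with -0.34 ± 0.17 was not (adjusted p 0.104). Dpysl4 was the only gene with a larger estimate after P15 than before it, and Dpysl3 fell about equally in both spans. The early and the late change share the P15 pools, and no test of their difference was run.

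All P28 and P32 pools lay below all P15 pools for 4 of 7 genes in heterozygotes (15.8% of tested probe sets) and for 6 of 7 in wild type (16.1%). Crmp1, Gap43 and Dpysl2 overlapped in heterozygotes, and Dpysl2 in wild type. The late call of Gap43 was lost without heterozygous pool P15 1c (-0.27, adjusted p 0.0549) or wild-type pool P28 1a (-0.28, 0.0699). Dpysl2 was called without heterozygous pool P15 2d (-0.43, 0.0425) or wild-type pool P15 2c (-0.48, 0.0112). With the Gapdh ratio in the model the late changes of Crmp1 (-0.28, adjusted p 0.0543) and Gap43 (-0.18, 0.347) were not called.

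**Figure D3:**
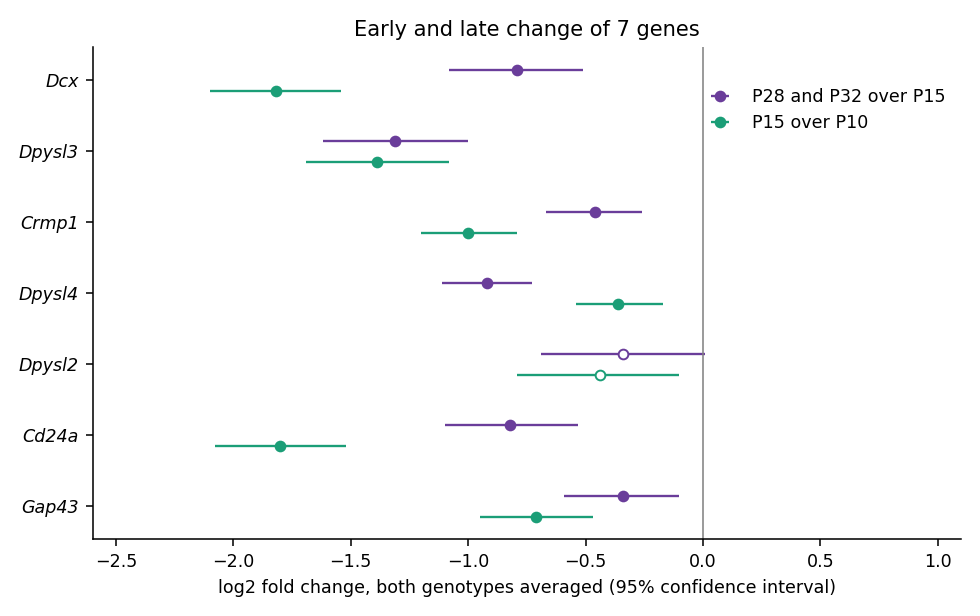
Log2 change of each gene from P10 to P15 (green) and from P15 to the mean of P28 and P32 (purple), both genotypes averaged, with 95% confidence intervals; filled points were called. Dcx and Cd24a changed most before P15, Dpysl4 changed more after P15, and Dpysl2 was called in neither span.

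Single steps between neighbouring ages after P15 held few calls. From P15 to P18, 1 of 7 genes was called, Crmp1 with -0.42 ± 0.12 (adjusted p 0.0414; 1.89% of tested probe sets were called lower). Crmp1 read 1304.5 and 806.0 in heterozygous pools at P18, against 1045.9 to 1676.5 at P15, and the ages overlapped. It read 1078.2 and 1075.4 in wild-type pools at P18, against 1470.8 to 1595.3 at P15, with no overlap. That call was lost without any 1 of 10 pools (heterozygous P15 1c, P15 1d and P18 1b; wild-type P15 1b, P15 2c, P15 2d, P18 1c, P18 1d, P20 2a and P20 2b), with changes of -0.43 to -0.25 and adjusted p of 0.0513 to 0.301. Without heterozygous pool P18 1a, the only heterozygous pool at P18 was 1b, with the high Gapdh ratio. The change was then -0.86 for Dpysl3, -0.42 for Dpysl4 and -0.46 for Gap43, against -0.55, -0.29 and -0.35 with all pools. From P18 to P20, 0 of 7 genes were called in limma, where 1 of 7453 probe sets (0.0134%) was (567 at an unadjusted p below 0.05).

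From P20 to P28 Dpysl3 changed by -0.96 ± 0.20 and Dpysl4 by -0.66 ± 0.12 (adjusted p 0.00477 and 0.00204), and these 2 of 7 were called lower, against 5% of tested probe sets. The Dpysl3 step came mainly from wild type, with 52.6 and 50.4 at P28 against 146.7 and 130.0 at P20, while heterozygous pools read 40.1 and 37.0 at P28 against 52.1 and 56.6 at P20. The Dpysl4 step came more from heterozygotes, with 141.6 and 150.6 at P28 against 267.8 and 317.0 at P20, while wild-type pools read 193.1 and 286.0 at P28 against 292.5 and 295.1 at P20. In each of these 4 comparisons the P28 pools lay below the P20 pools. The wild-type pools carry number 2 in their title codes at P20 and number 1 at P28, so number and age cannot be told apart there. Their Gapdh ratio was -0.33 and -0.30 at P20 and 0.15 and 0.05 at P28. From P28 to P32, 0 of 7 genes were called in limma, where 1 of 7453 probe sets (0.0134%) was (207 at an unadjusted p below 0.05), and the heterozygous P32 group is 1 pool.

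Over all ages together, all 7 genes had lower estimates in heterozygotes, and none was called. Cd24a differed by -0.34 (95% confidence interval -0.54 to -0.14; p 0.00171, adjusted p 0.295), Dpysl3 by -0.35 (-0.65 to -0.06; adjusted p 0.437) and Gap43 by -0.28 (-0.48 to -0.07; adjusted p 0.425). Dcx differed by -0.16 (-0.37 to 0.04), Dpysl4 by -0.11 (-0.27 to 0.05), Crmp1 by -0.06 (-0.21 to 0.08) and Dpysl2 by -0.02 (-0.28 to 0.24). In limma 0 of 7453 probe sets were called for this comparison and 698 had an unadjusted p below 0.05. These confidence intervals are of single genes and are not adjusted for the number of tests.

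At P10 the genotypes overlapped for 7 of 7 genes, where 4.78% of tested probe sets were lower in heterozygotes with no overlap. In limma 0 of 7 were called, where 0.0403% of tested probe sets were (443 at an unadjusted p below 0.05). The differences at P10 ran from -0.09 for Gap43 to 0.38 for Dpysl2. At P15 all 7 estimates were negative, from -0.18 for Dpysl4 to -0.45 for Gap43 (95% confidence interval -0.78 to -0.12), and 0 of 7 were called in limma, as were 0 of 7453 probe sets (440 at an unadjusted p below 0.05). The genotypes overlapped for 7 of 7 genes at P15, where 1.87% of tested probe sets were lower in heterozygotes with no overlap.

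The spread of Dcx, Cd24a and Gap43 at P15 followed the number in the title code, in opposite directions in the genotypes. This did not hold for every gene: for Dpysl2, number 2 minus number 1 was 0.08 in heterozygotes and -0.51 in wild type. In wild-type pools at P15 the letter changes with the number, so the 2 cannot be told apart there. Dcx read 136.8 and 121.1 in heterozygous pools 2c and 2d and 202.0 and 241.1 in heterozygous pools 1c and 1d. It read 297.0 and 232.4 in wild-type pools 2c and 2d and 167.5 and 170.4 in wild-type pools 1a and 1b. Heterozygous pools with number 2 were thus the lowest of the 8 and wild-type pools with number 2 among the highest. Cd24a and Gap43 had the same lowest pair, and their highest pair was wild-type 2c and 2d.

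Among pools with number 1 the genotype difference at P15 was 0.39 for Dcx, 0.26 for Cd24a, 0.08 for Gap43, -0.04 for Dpysl3, 0.11 for Crmp1, -0.09 for Dpysl4 and -0.63 for Dpysl2. Among pools with number 2 it was -1.03 for Dcx, -1.06 for Cd24a, -0.98 for Gap43, -0.80 for Dpysl3, -0.55 for Crmp1, -0.27 for Dpysl4 and -0.04 for Dpysl2. The sign differed between the numbers for Dcx, Cd24a, Gap43 and Crmp1. At P10, where both numbers also occur, Dcx differed by -0.03 among pools with number 1 and 0.20 among pools with number 2, and Cd24a by -0.06 among number 1 and -0.08 among number 2.

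The same pools stood apart in the summed intensity of 9 oligodendrocyte genes. The sum was 8949 and 9367 in heterozygous pools 2c and 2d, 5170 and 5613 in heterozygous 1c and 1d, 3299 and 4430 in wild-type 2c and 2d, and 6149 and 6229 in wild-type 1a and 1b. Pools with low Dcx, Cd24a and Gap43 had high sums, and the part of this in the genotype difference was not tested. At P10 the sums were 696 to 872 in heterozygotes and 964 to 1091 in wild type, and 7 of 7 tested oligodendrocyte genes were called higher at P15 than at P10. Between these ages 1932 of 7453 probe sets were called in either direction.

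**Figure D4:**
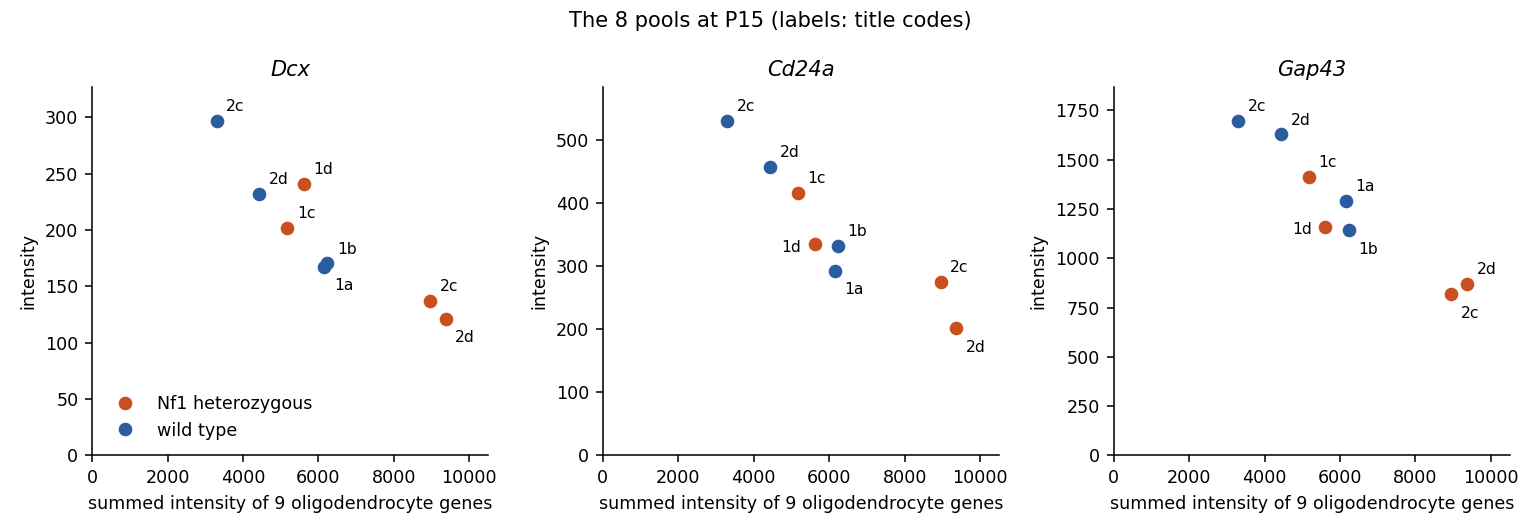
Intensity of Dcx, Cd24a and Gap43 against the summed intensity of 9 oligodendrocyte genes in the 8 pools at P15, labelled by title code, orange for Nf1 heterozygous and blue for wild type. Heterozygous pools 2c and 2d lie at the lower right of each panel and wild-type pools 2c and 2d at the upper left.

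At P18 Dpysl3 was the 1 of 7 genes called, with a difference of -0.83 ± 0.28 (log2, SE; adjusted p 0.0385), where 11.8% of tested probe sets were called lower and 22.8% in either direction. It read 91.9 and 38.4 in heterozygous pools and 112.5 and 98.8 in wild-type pools. The groups did not overlap, which held for 29.9% of tested probe sets in this direction, and most of the distance came from the pool at 38.4. That is pool 1b with the high Gapdh ratio, and without it the difference was -0.20 (adjusted p 0.735). The call was also lost without wild-type pool 1c (-0.73, 0.167) or 1d (-0.92, 0.108). For the other 6 genes the genotypes overlapped at P18.

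At P20 Dpysl3 and Gap43 were called lower in heterozygotes, 2 of 7 genes where 1.37% of tested probe sets were called lower and 2.27% in either direction. Dpysl3 read 52.1 and 56.6 in heterozygous and 146.7 and 130.0 in wild-type pools, a difference of -1.35 ± 0.28 or 2.54-fold (adjusted p 0.0139). Gap43 read 561.9 and 767.1 in heterozygous and 1466.7 and 1227.6 in wild-type pools, a difference of -1.03 ± 0.22 or 2.04-fold (adjusted p 0.0161). Both genes were clear of overlap, as were Dcx (129.9 and 111.5 in heterozygous against 150.1 and 144.8 in wild-type pools) and Cd24a (203.9 and 189.3 in heterozygous against 264.5 and 314.2 in wild-type pools). These 4 of 7 genes compare with 24.9% of tested probe sets. Dpysl2 read 84.0 and 99.9 in heterozygous against 61.8 and 67.0 in wild-type pools and was not called (0.51, adjusted p 0.456), and Crmp1 and Dpysl4 overlapped.

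At P20 the heterozygous pools carry number 1 in their title codes and the wild-type pools number 2, so number and genotype cannot be told apart at this age. The Gapdh ratio was 0.00 and 0.17 in the heterozygous pools and -0.33 and -0.30 in the wild-type pools. With the Gapdh ratio in the model the difference was -0.77 for Dpysl3 (adjusted p 0.266) and -0.70 for Gap43 (0.231), and neither was called. With the title number as a block, it was -1.34 and -1.05 (adjusted p 0.0582 for each). Both numbers occur within a genotype only at P10 and P15, so the block was estimated there. At P15, number 2 minus number 1 was -0.56 in heterozygotes and 0.19 in wild type for Dpysl3. For Gap43 it was -0.6 in heterozygotes and 0.45 in wild type. A block shared by the genotypes therefore cannot separate number from genotype at P20. Dpysl3 was not called without heterozygous 1a (-1.29, 0.0817) or 1b (-1.41, 0.0509) or wild-type 2a (-1.26, 0.164) or 2b (-1.43, 0.087). Gap43 was not called without heterozygous 1a (-0.81, 0.159) or wild-type 2a (-0.90, 0.208) or 2b (-1.16, 0.0763).

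The sums of some gene lists also stood apart between the genotypes at P20, including those of mature neurons and red blood cells. The sums of microglial, endothelial, choroid plexus and progenitor genes overlapped. The summed intensity of the 9 oligodendrocyte genes was 9179 and 10115 in heterozygous and 7282 and 7937 in wild-type pools, and that of 9 astrocyte genes 7383 to 8033 in heterozygous and 5759 to 6205 in wild-type pools. The sum of 26 other immature neuron genes was 8063 to 8706 in heterozygous and 9044 to 9588 in wild-type pools. Of the tested genes, 0 of 7 oligodendrocyte genes were called and 2 of 8 astrocyte genes were called higher. Of all tested probe sets, 2.27% were called in either direction. Of 22 other immature neuron genes 1 was called higher, and the median difference of that list was -0.04. The part of these shifts in the differences of Dpysl3 and Gap43 was not tested.

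At P28, 6 of 7 genes were lower in both heterozygous pools than in both wild-type pools, which held for 19.8% of tested probe sets, and 0 of 7 were called in limma, where 1 of 7453 probe sets (0.0134%) was (385 at an unadjusted p below 0.05). Dpysl4 differed most, with 141.6 and 150.6 in heterozygous against 193.1 and 286.0 in wild-type pools (-0.69, 95% confidence interval -1.04 to -0.33; p 0.000498, adjusted p 0.371). Without wild-type pool 1a the difference was -0.97 and was called (adjusted p 0.0353). Cd24a read 179.2 and 118.8 in heterozygous against 229.8 and 218.4 in wild-type pools (-0.62, -1.15 to -0.08). Gap43 was the gene that overlapped. The oligodendrocyte sum was 9075 and 8885 in heterozygous and 8640 and 7554 in wild-type pools at P28.

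At P32 there was 1 heterozygous pool, 0 of 7 genes were called in limma, where 0.0537% of tested probe sets were (509 at an unadjusted p below 0.05), and the estimates went both ways. The heterozygous pool was below both wild-type pools for 4 of 7 genes (Dcx, Dpysl2, Cd24a and Gap43), which held for 35.8% of tested probe sets. Dcx read 98.3 in the heterozygous pool against 138.0 and 136.2 in wild-type pools, and Cd24a read 173.5 in the heterozygous pool against 226.2 and 270.3 in wild-type pools. Dpysl3 read 55.4 in the heterozygous pool against 47.6 and 40.2 in wild-type pools, and Dpysl4 read 205.0 in the heterozygous pool against 180.5 and 155.8 in wild-type pools.

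The genotype difference changed with age for Dpysl3, the 1 of 7 genes called in the interaction test (adjusted p 0.0298; 6.49% of tested probe sets were called). Its differences were 0.35 at P10, -0.42 at P15, -0.83 at P18, -1.35 at P20, -0.42 at P28 and 0.34 at P32. These estimates moved down to P20 and returned after it, but without heterozygous pool P18 1b the P18 difference was -0.20, above that at P15. Genotype and title number cannot be told apart at P20, and P32 has 1 heterozygous pool. Gap43 (adjusted p 0.0922) and Dpysl4 (0.11) came next and were not called, and the other 4 genes had adjusted p of 0.347 to 0.66. The Dpysl3 interaction was not called with the Gapdh ratio in the model (0.186), nor without heterozygous pool P20 1a (0.0583) or wild-type pool P10 1b (0.0564), P10 2a (0.0501), P18 1c (0.068), P18 1d (0.068), P20 2a (0.0761) or P20 2b (0.0606). Without heterozygous pool P15 1c Gap43 was called as well (0.0489), and Dpysl4 was without heterozygous pool P18 1a (0.0329) or wild-type pool P28 1a (0.0416).

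**Figure D5:**
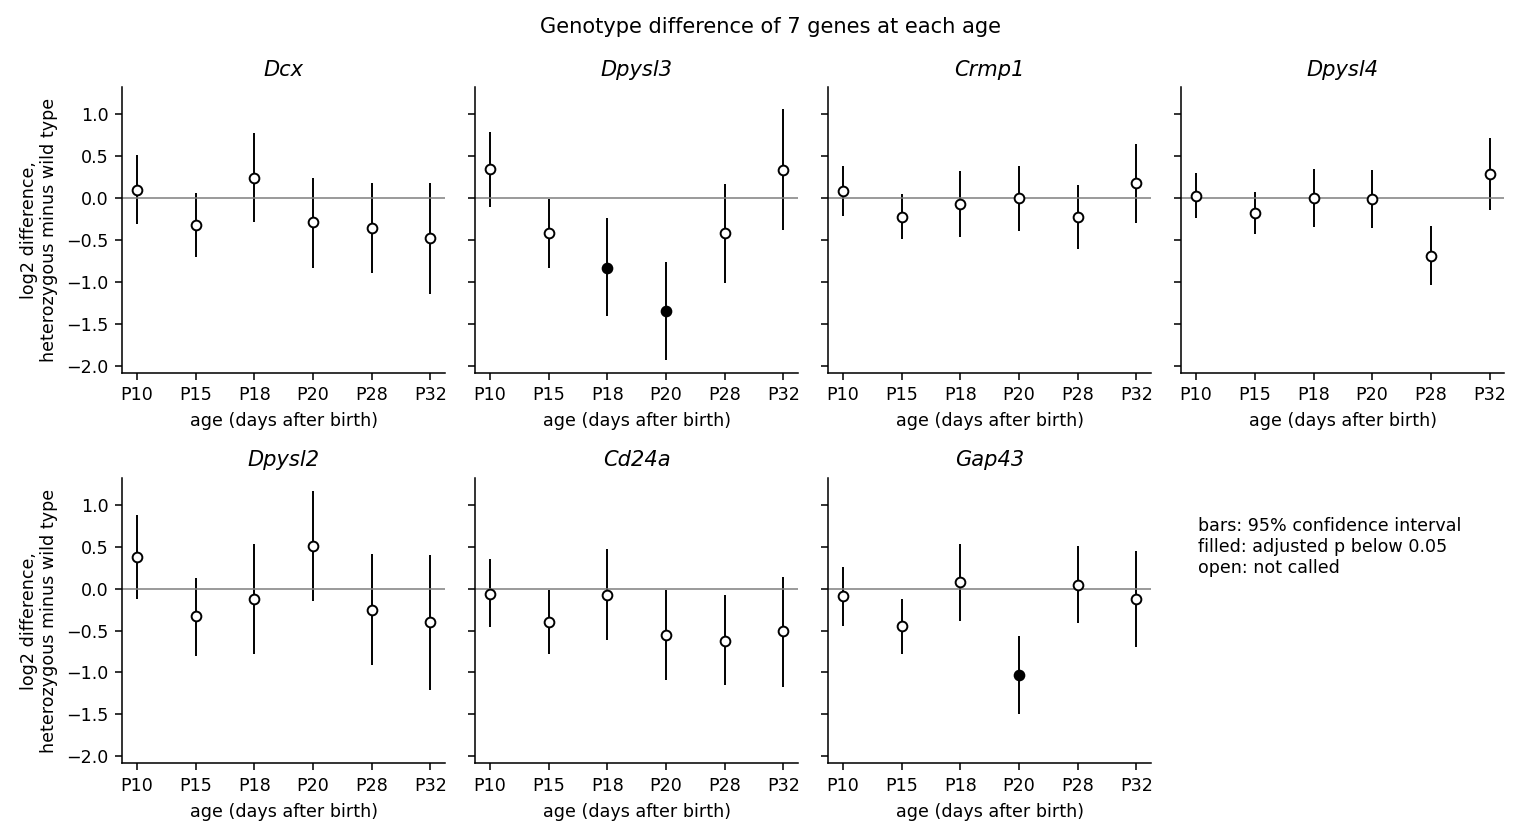
Log2 difference between genotypes (heterozygous minus wild type) of each of the 7 genes at each age, in days after birth, with 95% confidence intervals; filled points were called. Dpysl3 at P18 (-0.83) and P20 (-1.35) and Gap43 at P20 (-1.03) are the called differences.

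The 7 genes varied together across the 12 groups of genotype and age. Pearson's r of the group means of log2 values was 0.99 for Dcx and Cd24a, 0.95 for Crmp1 with either of them, and 0.90 for Dcx and Dpysl3. It was lowest for Dpysl2 and Gap43, at 0.47. These correlations describe 12 means from the same libraries, and the P10 groups set much of each. Dpysl2 was the gene least like the others, with r of 0.47 to 0.77.

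Genes outside the set were ranked by the same measure over the 12 group means. Closest to Dcx were Ybx1, a binding protein of messenger RNA, Spef1 and Tuba1a (r 0.97 each), followed by Ap1m1 and Snrpg (0.965 and 0.964). Tuba1a encodes the alpha-tubulin of growing axons, and it changed by -0.71 in heterozygotes and -0.61 in wild type from P10 to P28 and P32, much less than Dcx. Spef1 (0.974), Tuba1a, Itgb1, Serf1 and Ybx1 were closest to Cd24a, so 3 of the 5 also stood closest to Dcx. Closest to Dpysl3 was Stmn2 (0.981), a stathmin of growth cones, before Tmem229b, Acot7, Tm7sf2 and Neo1. Closest to Gap43 were Cops6 (0.954), Rpl10a, Uck2, Prune1 and Maz.

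Other genes of the same pathways did not all fall. Of all tested probe sets, 19.5% were called lower in heterozygotes and 20.1% in wild type over the whole span. In either direction, 36.5% were called in heterozygotes and 38.2% in wild type. Of 15 tested genes of semaphorin and collapsin response signalling, 4 were called higher and 6 lower in heterozygotes and 3 higher and 6 lower in wild type between P10 and the 2 oldest ages. The cell adhesion molecule L1cam fell most (-2.39 in heterozygotes and -1.74 in wild type), and the semaphorin co-receptor Plxna1 changed by -0.83 in heterozygotes and -1.35 in wild type. Numb, an adaptor of endocytosis, changed by 1.33 in heterozygotes and 1.34 in wild type on 1 probe set, while its other probe set gave -0.15 (not called) in heterozygotes and -0.95 in wild type. Of 14 tested growth cone membrane genes, 3 were called higher and 6 lower in each genotype, the lower ones including Marcksl1 (-1.07 in each) and Stmn2 (-1.25 in heterozygotes and -1.07 in wild type). Stmn3 was not called in heterozygotes (-0.23) and was called in wild type (-0.55), and its other probe set was called in heterozygotes (-0.67) and not in wild type (-0.24). Of 13 tested partners of doublecortin and migration genes, 1 was called higher and 6 lower in heterozygotes and 1 higher and 4 lower in wild type. Pafah1b3 (-1.24 in heterozygotes and -1.73 in wild type) and the migration signal Reln (-1.05 in heterozygotes and -0.96 in wild type) fell, and Nde1 rose (0.70 in heterozygotes and 0.87 in wild type).

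Of 22 other tested genes of immature neurons, 13 were called lower in heterozygotes and 11 in wild type, and 0 higher in either. The shares of all tested probe sets called lower were 19.5% in heterozygotes and 20.1% in wild type. The list median was -0.69 in heterozygotes and -0.46 in wild type, smaller in size than the median of the 7 genes. St8sia2, which makes polysialic acid on neural cell adhesion molecules, changed by -1.69 in heterozygotes and -2.20 in wild type, Igfbpl1 by -1.45 in heterozygotes and -1.40 in wild type, and Tmsb10 by -1.70 in heterozygotes and -1.40 in wild type. Of 10 tested neural progenitor genes, 4 were called lower in each genotype, among them Nes (-0.91 in heterozygotes and -1.05 in wild type) and Fabp7 (-1.60 in heterozygotes and -1.38 in wild type), while Mcm2 was not called in heterozygotes (-0.53) and was called in wild type (-1.05). No test compared these lists with the 7 genes.

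Markers of oligodendrocytes and most of those of astrocytes were higher at the older ages. Those of mature neurons, microglia and endothelial cells went both ways. Of all tested probe sets, 36.5% were called in either direction in heterozygotes and 38.2% in wild type, with 19.5% and 20.1% called lower. Of 7 tested oligodendrocyte genes, 7 were called higher in each genotype, with Mog at 6.15 in heterozygotes and 4.97 in wild type, Mobp at 5.91 in heterozygotes and 4.78 in wild type, and Mal at 4.74 in heterozygotes and 4.29 in wild type. The other 3 probe sets of Mobp gave 3.47 to 5.90 in heterozygotes and 2.85 to 4.37 in wild type, all called. Of 20 tested genes of mature neurons, 6 were called higher and 2 lower in heterozygotes and 9 higher and 3 lower in wild type. Gad1, which makes GABA, changed by 0.99 in heterozygotes and 0.90 in wild type, the vesicle fusion gene Snap25 by 0.65 in heterozygotes and 0.83 in wild type, and the dendritic microtubule gene Map2 by -1.46 in heterozygotes and -0.72 in wild type. Of 8 tested astrocyte genes, 6 were called higher in each genotype and 1 lower in heterozygotes. S100b changed by 1.89 in heterozygotes and 1.68 in wild type, and Gjb6 by 1.2 in heterozygotes and 1.40 in wild type. Glul, glutamine synthetase, changed by 2.13 in heterozygotes and 2.51 in wild type, and its other probe set by -0.62 in heterozygotes and -0.55 in wild type, both called. Of 8 tested microglial genes, 3 were called higher and 1 lower in heterozygotes and 2 higher and 1 lower in wild type. Ctss changed by 1.27 in heterozygotes and 1.22 in wild type and Cx3cr1 by -0.83 in heterozygotes and -0.75 in wild type, while Cd53 was not called in heterozygotes (0.50) and was called in wild type (0.95). Of 9 tested endothelial genes, 1 was called higher and 4 lower in heterozygotes and 1 higher and 5 lower in wild type. The glucose transporter Slc2a1 changed by 0.96 in heterozygotes and 0.93 in wild type, Tie1 by -0.97 in heterozygotes and -1.78 in wild type, and the tight junction gene Cldn5 by -0.77 in heterozygotes and -1.05 in wild type. The other probe set of Tie1 changed by -0.75 in heterozygotes and -0.80 in wild type, both called. Of 4 tested choroid plexus genes 1 was called higher in each genotype, and of 3 tested red blood cell genes 1 was called lower in heterozygotes and 0 in wild type.

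The oligodendrocyte sum was 8885 to 9340 at P28 and P32 in heterozygotes against 696 to 872 at P10, and 7554 to 8640 in wild type against 964 to 1091 at P10. The sum of 20 mature neuron genes was 19409 to 20720 in heterozygotes at P28 and P32 against 15266 to 16501 at P10, and 19594 to 21333 in wild type against 14735 to 15411 at P10. The sum of 12 progenitor genes was 2060 to 2634 at P28 and P32 in heterozygotes against 3828 to 4164 at P10, and 2033 to 3350 in wild type against 4002 to 4130 at P10. No value of any gene in the files was at 0. The part of these shifts in the fall of the 7 genes was not tested.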

How the data were processed

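Gene expression was measured in 30 pools of mouse hippocampus on Affymetrix arrays. Each array's deposited column holds linear intensities, with no statement of the software behind them. As the files show, the authors had scaled every array to a mean of 149.97 after leaving out 2% of values at each end; array medians were 49.99 to 59.11. Before log2 was taken, values below 1 (1.68%) were raised to 1. Testing left out 66 controls and the dimmest 40% of the remaining probe sets (4969, mean log2 below 4.95), which left 7453. In the platform annotation 10833 probe sets had 1 symbol, 396 several and 1193 none, and 10817 were matched to RefSeq genes (GRCm38.p6).

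Linear models were fitted to all 30 arrays with limma 3.58.1 (R 4.3.3, statmod 1.5.0), with an intensity trend and two-sided p-values adjusted over all tested probe sets by Benjamini and Hochberg. Adjusted p below 0.05 was called. Age plus genotype gave the difference over all ages, and 12 group means gave the rest. The heterozygous P32 pool was assumed to vary like the other groups. The fit was tested on simulated data. Groups and ages came from the labels.

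Named genes were all 7 members, the 3 largest called changes in wild type of each pathway or cell type list with at least 5 tested genes, and the 5 genes most correlated with each of Dcx, Dpysl3, Cd24a and Gap43, each gene by its brightest probe set. Members and lists were chosen with earlier results of these data known. Alternatives were another pseudocount (32), quantile normalization, other filters (none, 60%), no trend, array weights, title code or number as a block, the Gapdh ratio as a covariate, only the groups compared, and leaving out each pool. One alternative, leaving out both heterozygous P18 pools, was chosen after seeing the data.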

Additional observations from a re-analysis of the deposited data

Results flagged for a closer look

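Dpysl2 in the wild-type P15 pool with title code 2c stood apart from its group, at 5.70 on the log2 scale against 6.69, 6.78 and 6.81 in the other 3 pools. This was 1 of 21 groups of 4 pools examined by Dixon's test at the 95% level, which chance alone passes in about 1 of 20 groups. The same pool was the highest of the 8 at P15 for Dcx, Dpysl3, Cd24a and Gap43. For Dpysl3 a change of the genotype difference with age was called (adjusted p 0.0298 in limma's interaction test). The estimates were 0.35 at P10, -1.35 at P20 and 0.34 at P32 (heterozygous minus wild type, log2). This call was lost under 9 of 40 alternatives. At P20 genotype and title number cannot be told apart, and P32 has 1 heterozygous pool.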

How the results depend on the processing

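Across 41 settings, 30 of them leaving out 1 pool, 5304 of 5399 values of the 7 genes stayed on their side of the threshold, 61 lost a call, 33 gained one and 1 reversed. Of the 5304, 3372 were called under neither the main nor the other setting, and 79 of these changed sign. Over these settings the count of called genes from P10 to P28 and P32 was 6 to 7 in heterozygotes and 6 in wild type. No heterozygous call was lost, since the 6 came from the 60% filter, which left Dpysl2 untested. The genotype count at P18 (1) was 0 with log2(value + 32), quantile normalization, no filter, array weights, the Gapdh ratio and only the groups compared. At P20 (2) it was 0 with the title number as a block and with the Gapdh ratio, with which the interaction count (1) was also 0. The step from P15 to P18 (1) was 0 with no filter, no trend, array weights, the Gapdh ratio, only the groups compared and without both heterozygous P18 pools. Leaving out 1 pool gave counts of 0 to 1 at P18, 0 to 2 at P20, 0 to 1 at P28, 0 to 2 for the interaction and 0 to 4 for the step from P15 to P18. The causes were not tested.

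The labels do not say whether title codes shared by heterozygous and wild-type pools of an age pair them. Deviations from the group means correlated at -0.18 to 0.13 (median 0.03) over 7 pairs, 1 of them above 0.1. These few correlations cannot decide it, since in groups of 2 pools, as at P28, the pairs must give the same value. With the title code as a replicate block the genotype count was 3 at P15 (Dcx -1.03, Cd24a -1.06, Gap43 -0.98), 1 at P18 (Dcx, 1.66, not Dpysl3) and 0 at P20, and the step from P20 to P28 held 1 (not Dpysl4, -0.55, adjusted p 0.0653). At P15 only codes 2c and 2d occur in both genotypes, so these values equal the differences among pools with number 2. The genotypes share no code at P18 or P20, so differences there rest on code offsets from other ages. Heterozygous pools at P15 share no code with those at P10, P28 or P32. The block therefore cannot separate code from genotype or age in these comparisons. The late change held 2: Gap43 reversed to 0.15 (adjusted p 0.627), and Dcx (-0.13, 0.655), Cd24a (-0.16, 0.616) and Crmp1 (-0.28, 0.225) were not called. From P10 to P15 Dpysl4 (-0.29, 0.427, and -0.46, 0.317, in heterozygotes), Dpysl2 in heterozygotes (-0.22, 0.857) and Dpysl3 in wild type (-1.03, 0.0566) were not called. In the interaction Dcx was called (0.0328) and Dpysl3 was not (0.151).

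Over all tested probe sets, the calls at P18 (1700) were 204 with array weights, 125 with the code block, 80 with the Gapdh ratio, 0 with only the groups compared and 264 to 2769 without 1 pool. At P20 (169) they were 10 to 387, for the interaction (484) 22 to 1818, from P15 to P18 (286) 1 to 1587, from P18 to P20 (1) 0 to 423, from P20 to P28 (601) 119 to 1116, from P10 to P15 (1932) 618 to 2200, and for the late change (3238) 714 to 3469. From P10 to P15 they were 564 to 1868 in heterozygotes (1577) and 227 to 724 in wild type (429). At P10 (3) they were 0 to 10, at P15 (0) 0 to 81, at P28 (1) 0 to 8, at P32 (4) 0 to 94, over all ages (0) 0 to 1, for the difference in maturation (0) 0 to 4 and from P28 to P32 (1) 0 to 5. Without the heterozygous P32 pool no genotype difference at P32 could be fitted, and heterozygous maturation rested on P28. Groups of 1 to 4 pools limit every comparison at a single age.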
